A study of Homo sapiens with 4 samples.

Results

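The translation initiation and elongation factors are proteins that load ribosomes onto mRNA and move them along it. They are described here through 42 genes chosen by symbol, out of 57773 gene IDs listed in each library. All 42 matched 1 ID, and all 42 passed the filter on low counts, among 16090 genes tested. MIA-PaCa2 is an established cell line from a human pancreatic carcinoma. The resistant group held 2 libraries of this line, grown for 2 months in rising doses of AMG510 up to 5 µM. AMG510 is sotorasib, a covalent inhibitor used against some solid tumours. The untreated group held 2 libraries of the same line grown without the drug, and both groups shared the same culture medium. The labels describe 2 resistant and 2 untreated cell populations and do not say whether the drug was present at harvest or whether the populations were single clones. For resistant replicate 2 the title names AMG510 and the treatment field names AMG511, and the library was kept as resistant. Separate culture of the replicates within a group is not stated, so each p-value speaks only of the spread among these 4 libraries.

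Initiation starts when eIF2 brings the initiator tRNA to the small ribosomal subunit, with eIF1, eIF1A, eIF3 and eIF5. The cap-binding complex eIF4F, made of eIF4E, eIF4G and the helicase eIF4A, then recruits that subunit to capped mRNA. The exchange factor eIF2B recharges eIF2 with GTP after each round, and phosphorylated eIF2 blocks it, which is the core of the integrated stress response. Signals through ERK and mTOR act on eIF4E through the MNK kinases and the 4E-binding proteins, which is why these factors are often studied in cancer.

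Expected counts, the estimated numbers of reads from each gene, summed to 30146559 and 33074965 in resistant replicates 1 and 2, against 38052558 and 35747414 in untreated replicates 1 and 2. Levels are given as CPM, the usual share of a library's counts, after TMM scaling between libraries. The label of the cells was checked against marker genes. KRT8 and KRT18, keratins of epithelial cells, stood at 962 and 1245 CPM and at 957 and 1222 CPM in resistant replicates 1 and 2, against 3091 and 2076 CPM and 2282 and 1735 CPM in untreated replicates 1 and 2. KRT19 stood at 133 and 151 CPM in resistant libraries, against 259.7 and 142 CPM in untreated libraries. The other epithelial markers were low, with EPCAM at most 2.09 CPM, CDH1 at most 1.21 CPM and KRT7 at most 0.401 CPM in any library. PRSS1 and INS, markers of normal acinar and islet cells, had 0 counts in all 4 libraries. With CPA1, the 3 markers of these cells summed to 0.0296 CPM in resistant replicate 2 and to 0 in the other libraries. An upper limit of about 3 counts for a 0, at 95% confidence, equals 0.0801 to 0.104 CPM here. The summed level of the blood cell markers was 1.62 and 1.81 CPM in resistant libraries, against 6.12 and 6.22 CPM in untreated libraries, nearly all of it CD14. That of 3 fibroblast markers was 5.24 and 2.28 CPM in resistant libraries, against 0.298 and 0.267 CPM in untreated libraries, mostly PDGFRB, and that of 2 endothelial markers was 5.83 and 0.977 CPM in resistant libraries, against 8.42 and 4.22 CPM in untreated libraries. Their part in the differences between the groups was not tested. In bulk RNA, fewer cells of a type and less RNA per cell cannot be told apart.

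The comparison of resistant with untreated libraries asks which translation factors differ in cells selected for growth in the drug. The change ran in both directions and split complexes. EIF5A, EIF4A3, EIF2S1 and EIF5 were the most lowered members, and EIF4A2, EEF1G, EIF3F and EIF1 the most raised. By edgeR's quasi-likelihood test with Benjamini-Hochberg adjustment over all tested genes, 13 members were lower, 7 were higher and 22 were not called at an adjusted p below 0.05. The called members made up 47.6% of the 42, against 34% of all tested genes, and 42% of the 7871 tested genes with a mean of at least 20 CPM, a level that every member reached. Of the members 31% were lower, against 17.4% of all tested genes and 23% of those at 20 CPM or more. Of the members 16.7% were higher, against 16.6% and 19%. At an adjusted p below 0.01, 16.7% of the members were called, against 17.6% of all tested genes. Of the members 14.3% were then lower, against 8.63%, and 2.38% were higher, against 8.97%. The median log2 fold change of the members was −0.14, against −0.0126 over all tested genes.

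In 30 of the 42 members both resistant libraries lay on 1 side of both untreated ones, 20 of them lower and 10 higher. This share is near the 70.9% seen over all tested genes (36.3% lower and 34.6% higher). The untreated libraries differed from each other in one direction. In 37 of the 42 members untreated replicate 1 was above untreated replicate 2, whereas this held for 49.3% of all tested genes. The order was not particular to the members. It held in 31 of 32 small-subunit and 46 of 47 large-subunit ribosomal protein genes, but in 8 of 17 cap-binding and elongation control genes. In the resistant pair, replicate 1 was above replicate 2 in 26 members, in all 32 and 47 ribosomal protein genes and in 49.1% of all tested genes. Without untreated replicate 1, 5 members were called, 3 lower and 2 higher, which is 11.9% of the members against 16.9% of all tested genes in that fit. The higher share of calls among members was not seen without that library. The median log2 fold change of the members was then −0.00604, against 0.00942 over all tested genes. It was −0.23 against 0.0276 without untreated replicate 2, −0.195 against −0.00867 without resistant replicate 1 and −0.0936 against −0.0349 without resistant replicate 2. Without untreated replicate 2, 17 were called, 15 lower and 2 higher (40.5% against 28.6%). Without resistant replicate 1, 9 were called, 8 lower and 1 higher (21.4% against 25.1%), and without resistant replicate 2, 13 were called, 9 lower and 4 higher (31% against 30.1%). Only EIF2S1, EIF4A2, EIF4A3 and EIF5A were called in all 4 of these fits.

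**Figure D1:**
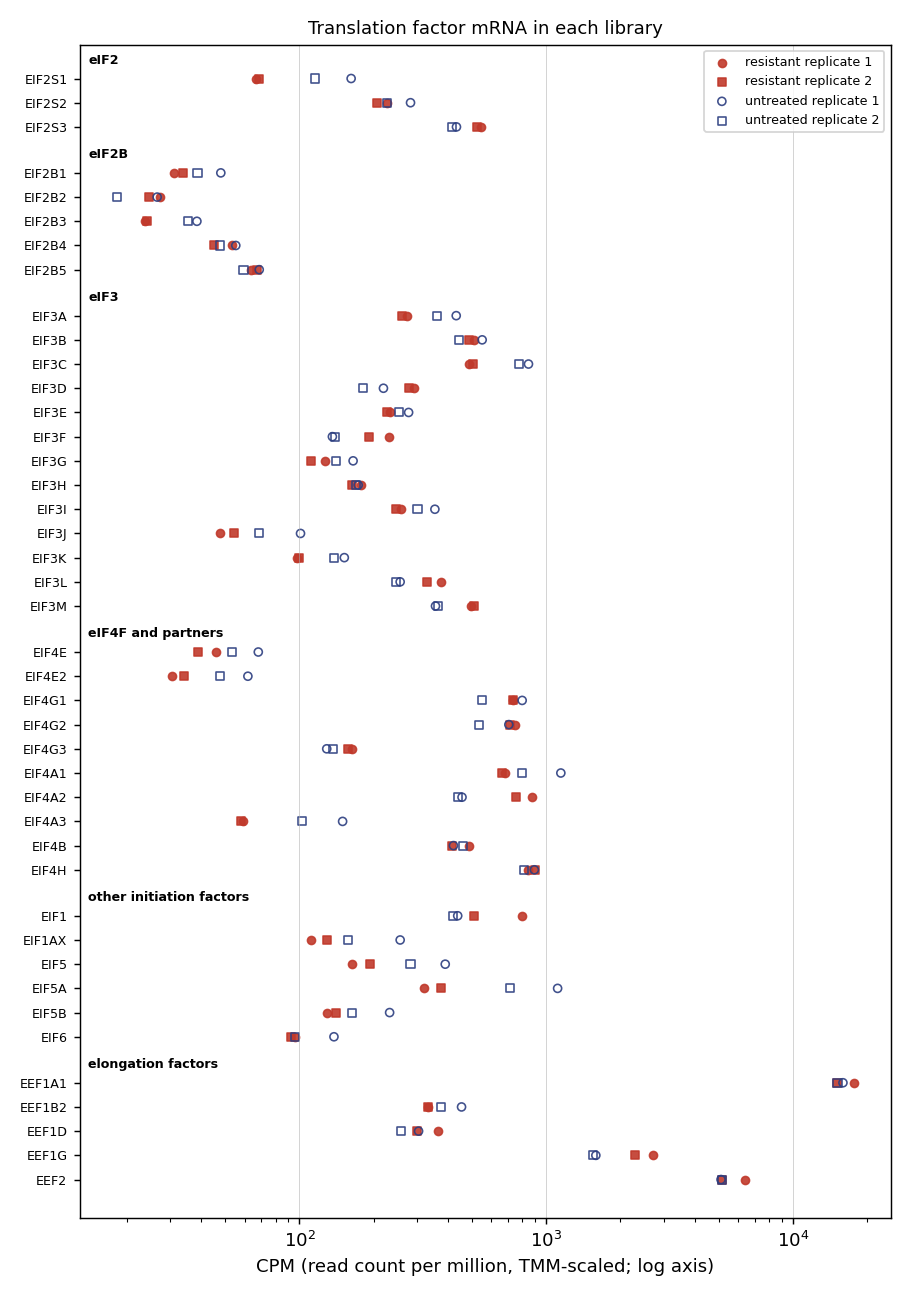
Level of each of the 42 translation factors in every library, grouped by complex, in CPM on a log axis. Filled red symbols are the 2 resistant libraries and open blue symbols the 2 untreated ones. EIF5A stands at 321 and 375 CPM in resistant libraries, left of 1113 and 713 CPM in untreated libraries, while EIF4A2 shows the opposite order.

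Among the 3 subunits of eIF2 (33.3% called, against 34% of all tested genes), the alpha subunit fell and the others were not called. EIF2S1 (ENSG00000134001, chromosome 14), the alpha subunit that carries the regulatory phosphorylation site, had 66.9 and 68.7 CPM in resistant libraries, against 162 and 116 CPM in untreated libraries. The groups did not overlap, and the resistant libraries were nearly equal to each other. Its log2 fold change was −1.03 (SE 0.18, adjusted p = 0.00228, edgeR), with leave-one-out values between −1.27 and −0.75. EIF2S2, the beta subunit, had 227 and 206 CPM in resistant libraries, against 282 and 227 CPM in untreated libraries (log2 fold change −0.23, edgeR adjusted p = 0.321). EIF2S3, the gamma subunit that binds GTP, had 543 and 524 CPM in resistant libraries, against 433 and 416 CPM in untreated libraries. It was higher in both resistant libraries, but its log2 fold change of 0.33 was not called (edgeR adjusted p = 0.133). Per kilobase of the longest annotated transcript, the order was EIF2S3 (187 CPM per kb in resistant and 148 in untreated libraries), then EIF2S2 (81.5 in resistant and 95.9 in untreated libraries), then EIF2S1 (15.1 in resistant and 30.9 in untreated libraries), and the same order held with the median coding transcript length.

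Of the 5 subunits of eIF2B, which exchanges GDP for GTP on eIF2, only the gamma subunit was called. This share of 20% was below the 34% of all tested genes. EIF2B3 had 23.7 and 24.1 CPM in resistant libraries, against 38.4 and 35.3 CPM in untreated libraries. All 4 values were close within their group and the groups stood apart (log2 fold change −0.63, SE 0.18, edgeR adjusted p = 0.0194). The call ended without untreated replicate 1 (edgeR adjusted p = 0.126) and without resistant replicate 1 (0.0645). The catalytic subunit EIF2B5 was the most abundant of the 5 in CPM, at 63.8 and 67.4 CPM in resistant libraries, against 68.7 and 59.3 CPM in untreated libraries, and the groups overlapped. The 4 members not called, EIF2B1, EIF2B2, EIF2B4 and EIF2B5, had log2 fold changes between −0.42 and 0.21.

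The scaffold eIF3, whose 13 subunits hold the small ribosomal subunit during scanning, split evenly. EIF3A, EIF3C, EIF3J and EIF3K fell, EIF3D, EIF3F, EIF3L and EIF3M rose, and EIF3B, EIF3E, EIF3G, EIF3H and EIF3I were not called. Lower calls made up 30.8% and higher calls 30.8%, against 17.4% and 16.6% of all tested genes. The median log2 fold change of the 13 subunits was −0.21.

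Of the eIF3 subunits that fell, EIF3C had the smallest adjusted p. EIF3C (ENSG00000184110, chromosome 16) had 489 and 505 CPM in resistant libraries, against 848 and 773 CPM in untreated libraries (log2 fold change −0.71, SE 0.16, edgeR adjusted p = 0.00773). It has a near-identical copy, EIF3CL, at 84 and 44 CPM in resistant libraries and 105 and 98 CPM in untreated libraries, so that its value is uncertain to the extent that the counting did not separate the copies. EIF3A, the largest subunit, had 274 and 259.7 CPM in resistant libraries, against 432 and 362 CPM in untreated libraries (−0.58, SE 0.17, edgeR adjusted p = 0.0227). EIF3J, a loosely bound subunit, had 47.5 and 54.4 CPM in resistant libraries, against 101 and 68.4 CPM in untreated libraries (−0.73, SE 0.20, edgeR adjusted p = 0.0178). EIF3K had 98.1 and 99.2 CPM in resistant libraries, against 152 and 138 CPM in untreated libraries (−0.56, SE 0.15, edgeR adjusted p = 0.0185). As in 36.3% of all tested genes, both resistant libraries lay below both untreated ones in each of these 4 subunits. Without untreated replicate 1 none of them was called (edgeR adjusted p = 0.0711 for EIF3C, 0.201 for EIF3A, 0.209 for EIF3J and 0.129 for EIF3K), and the log2 fold change of EIF3J was then −0.40. Without resistant replicate 1, EIF3C (edgeR adjusted p = 0.071), EIF3A (0.0916) and EIF3K (0.0997) were not called, and without resistant replicate 2, EIF3A (0.0846) and EIF3K (0.0539) were not.

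Of the eIF3 subunits that rose, EIF3F moved most. EIF3F (ENSG00000175390, chromosome 11) had 231 and 192 CPM in resistant libraries, against 136 and 139 CPM in untreated libraries (log2 fold change 0.62, SE 0.17, edgeR adjusted p = 0.0158). EIF3D, the subunit that can bind the cap of some mRNAs by itself, had 292 and 278 CPM in resistant libraries, against 219 and 181 CPM in untreated libraries (0.51, SE 0.17, edgeR adjusted p = 0.0369). EIF3L had 374 and 329.5 CPM in resistant libraries, against 256 and 247 CPM in untreated libraries (0.48, SE 0.16, edgeR adjusted p = 0.0399). EIF3M had 494 and 508 CPM in resistant libraries, against 356 and 365 CPM in untreated libraries (0.47, SE 0.16, edgeR adjusted p = 0.0396). As in 70.9% of all tested genes, the groups did not overlap in any of the 4. These calls lay close to the threshold. With any 1 library left out, EIF3M (edgeR adjusted p between 0.126 and 0.164) and EIF3L (between 0.0507 and 0.258) were not called. EIF3F lost its call without untreated replicate 1 (0.0718) and without resistant replicate 1 (0.126). EIF3D was called only when untreated replicate 1 was left out (edgeR adjusted p = 0.049) and not without untreated replicate 2 (0.22), resistant replicate 1 (0.145) or resistant replicate 2 (0.0661).

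The 5 eIF3 subunits not called had log2 fold changes between −0.37 and 0.00. EIF3E, EIF3I and EIF3G, which binds RNA, had no overlap between groups, as was seen for 70.9% of all tested genes. EIF3G had 127 and 111 CPM in resistant libraries, against 165 and 140.1 CPM in untreated libraries, and EIF3I had 259 and 246 CPM in resistant libraries, against 354 and 301 CPM in untreated libraries. EIF3B and EIF3H overlapped between the groups.

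**Figure D2:**
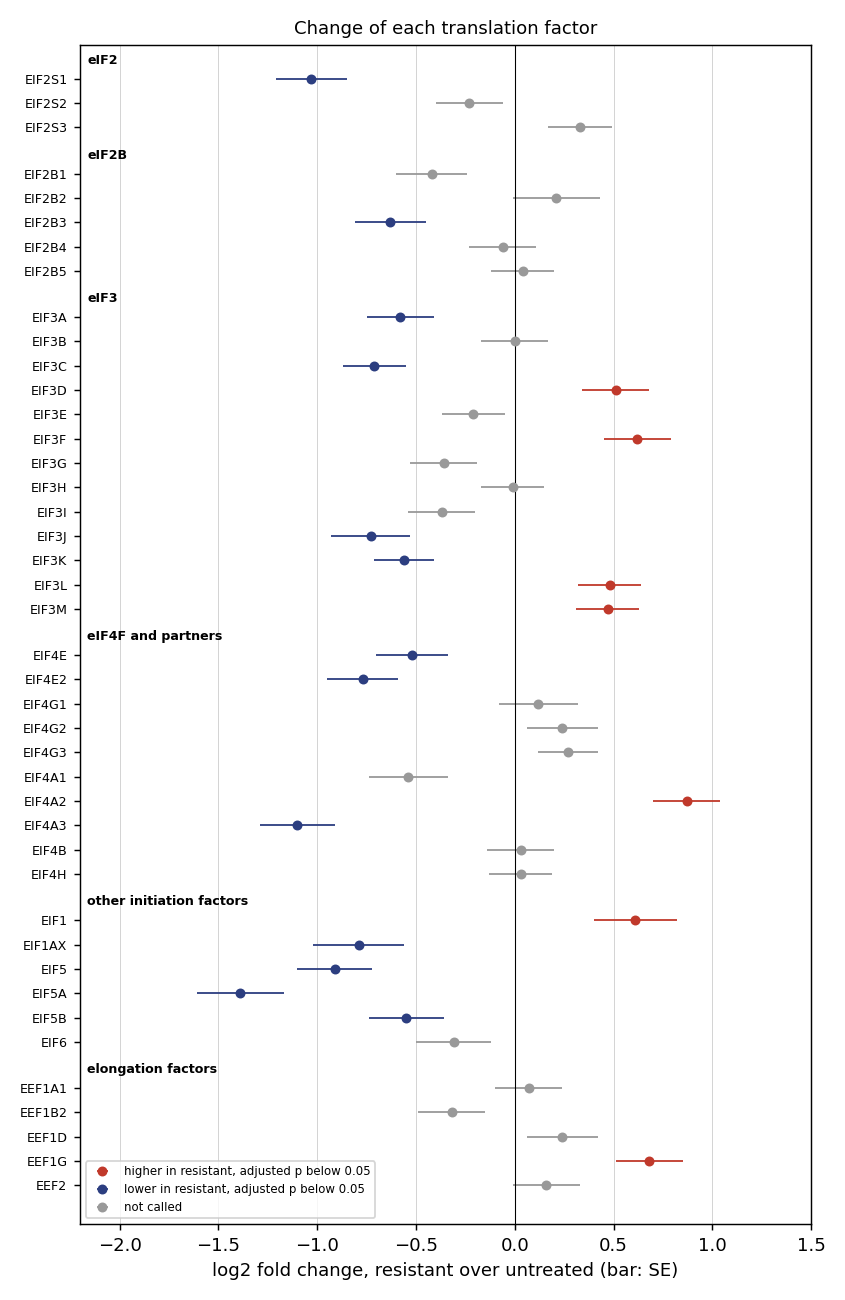
Log2 fold change of each member, resistant over untreated, with its standard error as a bar, grouped by complex. Red members were called higher, blue ones lower and grey ones not at all. In eIF3 the points fall on both sides of 0, from −0.73 for EIF3J to 0.62 for EIF3F, and EIF5A lies furthest left at −1.39.

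Of eIF4F and its partners, EIF4E and its homolog EIF4E2 were called lower, the helicase EIF4A2 was called higher, and its paralog EIF4A1 was not called. Called genes made up 40% of the 10 in this group, against 34% of all tested genes. EIF4E, which binds the cap, had 46 and 38.8 CPM in resistant libraries, against 68.1 and 53.5 CPM in untreated libraries (log2 fold change −0.52, SE 0.18, edgeR adjusted p = 0.0456). This call is marginal. It ended without untreated replicate 1 (log2 fold change −0.31, edgeR adjusted p = 0.362), without resistant replicate 2 (edgeR adjusted p = 0.167), with RLE scaling (0.0533), upper-quartile scaling (0.0503) or a stricter filter (0.0524), and in DESeq2 (0.0585). EIF4E pseudogenes held up to 24.2% as many counts as EIF4E itself in a library, and its counts were not whole numbers, so reads may have been split with them. EIF4E2, a cap-binding homolog that does not support recruitment by eIF4G and acts mainly as a repressor, had 30.3 and 34.1 CPM in resistant libraries, against 61.8 and 47.8 CPM in untreated libraries. Its log2 fold change was −0.77 (SE 0.18, edgeR adjusted p = 0.00939), and it was not called without untreated replicate 1 (0.11).

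EIF4A2 and EIF4A1 encode closely related eIF4A helicases. EIF4A2 (ENSG00000156976, chromosome 3) had 877 and 756 CPM in resistant libraries, against 456 and 440.1 CPM in untreated libraries (log2 fold change 0.87, SE 0.17, edgeR adjusted p = 0.00318), and stayed between 0.77 and 0.97 with any library left out. EIF4A1 (ENSG00000161960, chromosome 17), which had the highest mean CPM of this group in untreated libraries, had 678 and 664 CPM in resistant libraries, against 1147 and 797 CPM in untreated libraries. Both resistant values lay below both untreated ones, yet the change just missed the threshold (−0.54, SE 0.20, edgeR adjusted p = 0.0559). It passed in DESeq2 (adjusted p = 0.0408) and without a filter (edgeR, 0.0277). By edgeR it did not pass with RLE scaling (0.0697), upper-quartile scaling (0.0512), a stricter filter (0.064) or the newer form of the test (0.0549). Nor did it pass in limma-voom (adjusted p = 0.0553). The log2 fold change of EIF4A1 was −0.79 without untreated replicate 2 and −0.23 without untreated replicate 1. The ratio of EIF4A2 to EIF4A1 CPM was 1.29 and 1.14 in resistant libraries, against 0.397 and 0.552 in untreated libraries, 2.59-fold higher in resistant libraries. This ratio is a description of these libraries, with no test.

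EIF4A3, a helicase of the same family that marks exon junctions rather than serving in eIF4F, had 59.3 and 58.2 CPM in resistant libraries, against 149.6 and 102 CPM in untreated libraries. Its log2 fold change was −1.10 (SE 0.19, edgeR adjusted p = 0.00218), between −1.36 and −0.77 with a library left out. The scaffolds were not called. EIF4G1 had 734 and 735 CPM in resistant libraries, against 799.5 and 551 CPM in untreated libraries, so that the resistant values fell inside the untreated range. EIF4G3 had 163 and 158 CPM in resistant libraries, against 129 and 137 CPM in untreated libraries (0.27, edgeR adjusted p = 0.2). EIF4G2, a relative of the scaffolds that lacks the eIF4E-binding part, and the helicase cofactors EIF4B and EIF4H had log2 fold changes of 0.24, 0.03 and 0.03.

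Of the 6 other initiation factors (83.3% called, against 34% of all tested genes), 4 fell, 1 rose and 1 was not called. EIF5A (ENSG00000132507, chromosome 17), a hypusine-containing factor that helps the ribosome past difficult peptide bonds, was the most abundant of them in CPM in untreated libraries. It had 321 and 375 CPM in resistant libraries, against 1113 and 713 CPM in untreated libraries. The untreated libraries were more than 1.5-fold apart, and both lay well above the resistant pair. Its log2 fold change was −1.39 (SE 0.22, edgeR adjusted p = 0.00144), −1.01 without untreated replicate 1 and −1.69 without untreated replicate 2. EIF5, which triggers GTP hydrolysis by eIF2, had 164 and 194 CPM in resistant libraries, against 389.9 and 282 CPM in untreated libraries (−0.91, SE 0.19, edgeR adjusted p = 0.00549, and 0.0572 without untreated replicate 1). EIF1AX, the X-linked eIF1A gene, had 111 and 129 CPM in resistant libraries, against 256 and 158 CPM in untreated libraries (−0.79, SE 0.23, edgeR adjusted p = 0.0242). Without untreated replicate 1 its log2 fold change was −0.37 (edgeR adjusted p = 0.244).

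EIF5B, which joins the ribosomal subunits, had 129 and 141 CPM in resistant libraries, against 232 and 164 CPM in untreated libraries (log2 fold change −0.55, SE 0.19, edgeR adjusted p = 0.0465). The call ended without untreated replicate 1 (−0.25, adjusted p = 0.442), resistant replicate 1 (0.171) or resistant replicate 2 (0.0584), with RLE scaling (0.0547) and with a stricter filter (0.0538), all by edgeR. EIF1, which guards start codon choice, was the riser, with 795 and 512 CPM in resistant libraries, against 438 and 419 CPM in untreated libraries. The resistant libraries were 1.55-fold apart, and replicate 1 stood far above the other 3 libraries. Its log2 fold change was 0.61 (SE 0.21, edgeR adjusted p = 0.0473) and dropped to 0.27 (0.504) without resistant replicate 1. It was also not called without untreated replicate 1 (0.138) or untreated replicate 2 (0.155), or in limma-voom (adjusted p = 0.0507). EIF6, which keeps the ribosomal subunits apart, overlapped between the groups (−0.31, edgeR adjusted p = 0.226) but was called lower without untreated replicate 2 (0.0441).

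Of the 5 elongation factors (20% called, against 34% of all tested genes), 1 rose and 4 were not called. EEF1A1, which delivers aminoacyl-tRNA, was the most abundant member, with 17642 and 15154 CPM in resistant libraries, against 15964 and 15175 CPM in untreated libraries. EEF2, which moves the ribosome by 1 codon, had 6377 and 5151 CPM in resistant libraries, against 5115 and 5170.1 CPM in untreated libraries. Both overlapped between the groups, with log2 fold changes of 0.07 and 0.16. EEF1G (ENSG00000254772, chromosome 11), a subunit of the exchange factor that recharges eEF1A, was the only one called. It had 2716 and 2296 CPM in resistant libraries, against 1590.1 and 1542 CPM in untreated libraries (0.68, SE 0.17, edgeR adjusted p = 0.0114). The call ended without untreated replicate 1 (0.0664), untreated replicate 2 (0.0667) or resistant replicate 1 (0.143).

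The partners of EEF1G in that exchange factor had values in both directions. EEF1B2, a catalytic subunit, had 332 and 333 CPM in resistant libraries, against 454 and 374 CPM in untreated libraries (log2 fold change −0.32, edgeR adjusted p = 0.17). EEF1D, the other catalytic subunit, had 365 and 299.8 CPM in resistant libraries, against 304 and 258 CPM in untreated libraries (0.24, adjusted p = 0.315). Per kilobase of the longest transcript, EEF1A1 (3692 CPM per kb in resistant and 3506 in untreated libraries) was ahead of EEF2 (1822 in resistant and 1625 in untreated libraries) and EEF1G (1004 in resistant and 627 in untreated libraries), and this order also held with the median coding transcript length. Pseudogenes of EEF1A1, 48 of which are listed, held up to 7.47% as many counts as the gene.

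Several of these values share reads with other genes to an unknown extent. The strand setting is not given in the sources used here, and among the called members EIF2S1, EIF3A, EIF3J, EIF3L, EIF4A2, EIF4E2, EIF5A and EIF5B each overlap an expressed gene on the opposite strand. So do EIF2B1, EIF2B4, EIF3G, EIF3H, EIF3I, EIF4B, EIF4G2, EEF1B2 and EEF1D, which were not called. EIF2B1 averaged 1314.5 counts, fewer than its partners DDX55 with 1401.8 and GTF2H3 with 2629.5. The partner of EIF3J, SPG11, had nearly as many counts as EIF3J, with means of 2377.2 for EIF3J and 2265 for SPG11 over the 4 libraries. EIF4E2 averaged 1525.2 counts and its partner TIGD1 755. EEF1G overlaps another protein-coding gene on its own strand, which had far fewer counts. In 19 members the expected counts were not whole numbers, which marks reads divided among genes, and in 23 they were whole in all 4 libraries.

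The members that rose lay mostly among genes that also had higher values in resistant libraries. For each member, the median log2 fold change of the 20 tested protein-coding genes on each side of it on the chromosome was taken, without the member itself. Of the 7 members that rose, 6 had a neighbourhood median above 0.2, as did 6 of the 22 members not called. It was 0.77 around EIF3F, 0.71 around EIF3L, 0.67 around EIF3D, 0.52 around EIF4A2, 0.41 around EEF1G and 0.23 around EIF3M, and it was 0.08 around EIF1. EIF3F, EIF3M and EEF1G lie on chromosome 11, where the median over all tested protein-coding genes was 0.42, and EIF3D and EIF3L on chromosome 22, where it was 0.46.

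Of the 13 members that fell, 1 had a neighbourhood median above 0.2, EIF1AX on the X chromosome (0.52). This count depended on the window. It was also 1 with 40 genes on each side, but 5 with 10 genes, where EIF1AX (0.93), EIF3J (0.51), EIF5 (0.25), EIF5A (0.24) and EIF3C (0.24) passed 0.2. Of the 7 members that rose, 6 passed 0.2 with each of the 3 windows. With 20 genes the medians were 0.09 around EIF5A, 0.01 around EIF2S1 and EIF5 and −0.02 around EIF4A3. With 10 genes the median was −0.29 around EIF2S1 and −0.04 around EIF4A3. The median around EIF4E2 was −0.25 with both windows, that around EIF3A was −0.34 with 20 genes and −0.12 with 10, and that around EIF3C turned from −0.35 with 20 genes to 0.24 with 10. Among all tested protein-coding genes a neighbourhood median above 0.2 was found for 35.9% of 2288 genes called higher, 8.28% of 2549 called lower and 18.4% of 8021 not called. Across the 42 members, which share these 4 libraries and in part their neighbours, Spearman's rho between a member's change and its neighbourhood median was 0.44, against 0.26 across all 12858 tested protein-coding genes. What part chromosomal position has in these changes was not tested.

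**Figure D3:**
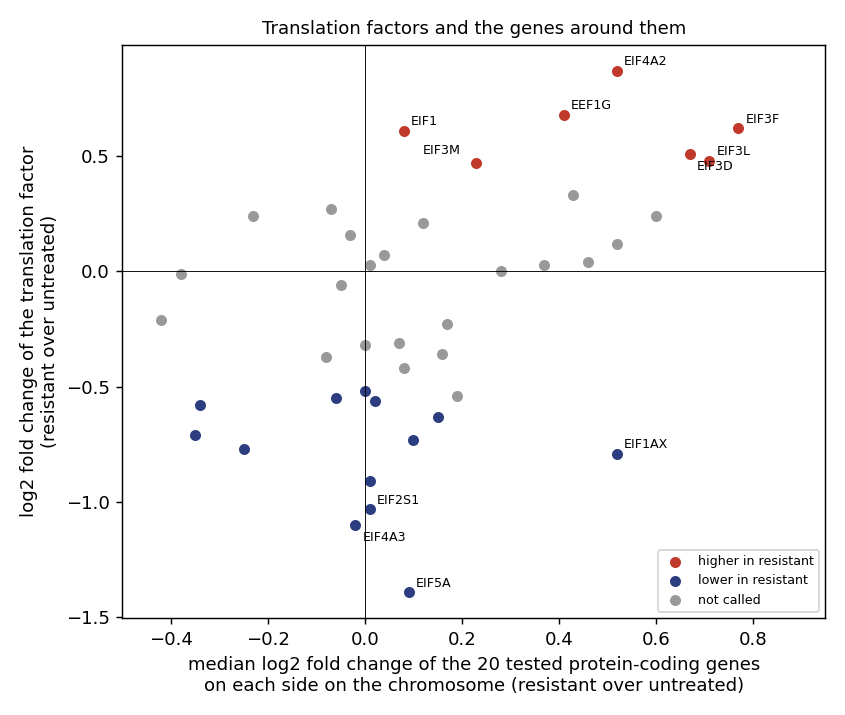
Log2 fold change of each member, resistant over untreated, against the median log2 fold change of the 20 tested protein-coding genes on each side of it. Red, blue and grey points were called higher, lower or not at all. The points at the upper right are EIF3F, EIF3L, EIF3D, EIF4A2 and EEF1G, while EIF5A, EIF4A3 and EIF2S1 lie low above a neighbourhood median near 0.

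Many translation factors and nearly all ribosomal proteins are made from mRNAs that begin with a C followed by a run of pyrimidines, the 5′ terminal oligopyrimidine tract, through which mTOR and LARP1 control their translation. The letters at the annotated starts are shown here because members with such a run and members without it had different median changes, which were not tested against each other. The RefSeq promoter table (GRCh38.p14, another build than that of the counts) holds 35 of the 42 members. EIF2S2, EIF3A, EIF3E, EIF3G, EIF3H, EIF3L and EEF1D were not analysed here. Each line gives 40 bases before and 20 bases from the annotated start on, 5′ to 3′ on the strand of the gene. Capitals mark an unbroken run of at least 6 letters C or T that begins with a C within 5 bases of the start. The first 4 belong to members that rose, the next 2 to the most abundant elongation factors, and the last 5 to members that fell. The printed windows are a choice and do not stand for all 35 members. EEF1G and EIF1, which rose and have no such run, are not printed. Nor are EIF3J and EIF4E2, which fell and have it, or the other members that fell.
EIF3F, chr11:7987297-7987356, plus strand: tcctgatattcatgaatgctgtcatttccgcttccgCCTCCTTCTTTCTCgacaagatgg
EIF3D, chr22:36529147-36529206, minus strand: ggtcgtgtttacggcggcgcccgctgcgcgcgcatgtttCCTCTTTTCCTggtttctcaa
EIF3M, chr11:32583791-32583850, plus strand: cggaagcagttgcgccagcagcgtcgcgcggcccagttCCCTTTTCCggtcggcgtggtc
EIF4A2, chr3:186783537-186783596, plus strand: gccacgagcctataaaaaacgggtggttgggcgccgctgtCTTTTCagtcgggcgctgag
EEF1A1, chr6:73521013-73521072, minus strand: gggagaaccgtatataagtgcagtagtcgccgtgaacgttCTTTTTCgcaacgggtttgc
EEF2, chr19:3985444-3985503, minus strand: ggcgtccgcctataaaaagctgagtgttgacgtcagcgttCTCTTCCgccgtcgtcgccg
EIF3K, chr19:38619148-38619207, plus strand: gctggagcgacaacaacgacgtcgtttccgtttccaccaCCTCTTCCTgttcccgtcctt
EIF5A, chr17:7306959-7307018, plus strand: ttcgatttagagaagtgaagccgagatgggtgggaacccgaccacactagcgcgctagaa
EIF4A3, chr17:80147109-80147168, minus strand: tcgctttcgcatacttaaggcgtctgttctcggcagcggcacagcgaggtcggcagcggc
EIF2S1, chr14:67360288-67360347, plus strand: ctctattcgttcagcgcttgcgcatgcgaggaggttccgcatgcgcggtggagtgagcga
EIF1AX, chrX:20141819-20141878, minus strand: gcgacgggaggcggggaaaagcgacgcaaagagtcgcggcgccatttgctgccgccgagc

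A run of at least 6 letters was found in 12 of the 35 members, against 1795 of 11124 tested genes (16.1%). Of 6 members that rose, 4 had it, with 14 letters in EIF3F, 11 in EIF3D, 9 in EIF3M and 6 in EIF4A2, while EEF1G and EIF1 did not. Of 12 members that fell, 3 had it, EIF3K with 9 letters and EIF3J and EIF4E2 with 6 each. EIF5A had none at any of its 6 annotated starts, of which 1 is printed. Of 17 members not called, 5 had it, among them EIF2S3 with 12 letters and EEF1B2 with 16.

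The median log2 fold change was 0.20 over the 12 members with the run and −0.37 over the 23 without it. Over all tested genes in the table it was 0.06 for 1795 genes with the run and −0.04 for 9329 without it. The run was found in 84.1% of 63 ribosomal protein genes, in 18.3% of all tested genes called higher, in 13.1% of those called lower and in 16.4% of those not called. The median log2 fold change of the listed ribosomal protein genes was −0.10 for the small and −0.13 for the large subunit. The 4 members that rose and had the run also had neighbourhood medians above 0.2. These were 0.77 for EIF3F, 0.67 for EIF3D, 0.23 for EIF3M and 0.52 for EIF4A2, and run and position were not tested apart. The annotated start need not be the one these cells use.

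**Figure D4:**
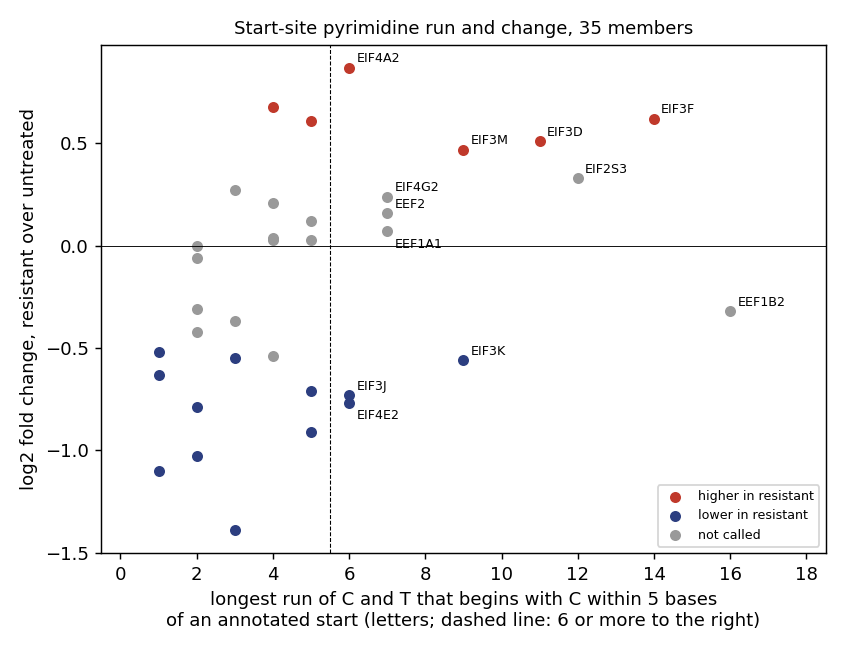
Log2 fold change of 35 members, resistant over untreated, against the length in letters of the longest run of C and T that begins with a C within 5 bases of an annotated start. Members right of the dashed line have at least 6 letters. EIF3F, EIF3M, EIF3D and EIF4A2 are high on the right, EIF3K, EIF3J and EIF4E2 are low on the right, and the most lowered members lie on the left.

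In the whole 300-base windows, 8 further motifs were searched on both strands after the values were known. The E-box CACGTG, bound by MYC and its partners, was present in 4 of 12 members that fell, 1 of 6 that rose and 3 of 17 not called, against 12.3% of all tested genes. CCGGAA is the core that ETS factors bind. It was present in 5 of 6 members that rose, 3 of 12 that fell and 7 of 17 not called. Its share over all tested genes was 34%. Over all tested genes the order was the other way, with 26.1% of genes called higher and 38.7% of genes called lower. CGGAAG, which overlaps that core, was present in 4 of 6 members that rose, 2 of 12 that fell and 9 of 17 not called, against 37.4% of all tested genes, and here too the order over all tested genes was the other way, with 28.8% of genes called higher and 41.1% of genes called lower. In the same order, GCGCGC was present in 3 of 6, 5 of 12 and 6 of 17, against 37.5%. GGGCGG was present in 4 of 6, 8 of 12 and 15 of 17, against 76.5%. TATAAA was present in 1 of 6, 0 of 12 and 1 of 17, against 8.13%. TGACGTCA, the cAMP response element, was present in 0 of the 18 members that rose or fell, against 3.79% of all tested genes. It was present in 1 of 17 not called, EEF2. At so low a share, absence from 18 genes cannot show a difference. For the C/EBP-ATF response element that ATF4 binds, a single exact string was searched, and other forms of it were not. That string was present in 0 of these 18 members and in 4 of 11124 tested genes (0.036%). A string this rare would be absent from nearly any 18 genes, so its search cannot show whether these members lack ATF4 sites. A match is a description of letters and not of binding.

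Paralogs and accessory factors outside the 42 had 7 of 22 tested genes lower and 3 higher. These shares, 31.8% and 13.6%, stood against 17.4% and 16.6% of all tested genes. EIF5A2, a paralog of EIF5A, had 24.6 and 21.2 CPM in resistant libraries, against 9.83 and 7.19 CPM in untreated libraries, the opposite direction to EIF5A. It rose by a log2 fold change of 1.43 (SE 0.24, edgeR adjusted p = 0.00159) and was called with any library left out. The ratio of EIF5A2 to EIF5A CPM was 0.0765 and 0.0565 in resistant libraries, against 0.00883 and 0.0101 in untreated libraries. The genes around EIF5A2 had a median of 0.71. EIF5AL1, an intronless copy of EIF5A, fell by 1.40 (edgeR adjusted p = 0.00172), and its CPM was between 0.0331 and 0.0376 of that of EIF5A in all 4 libraries, so that it cannot be told apart from EIF5A.

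EIF2A, which is no subunit of eIF2 but can deliver initiator tRNA, had 99.2 and 79.1 CPM in resistant libraries, against 49.8 and 42.8 CPM in untreated libraries (log2 fold change 0.94, SE 0.17, edgeR adjusted p = 0.00258). PABPC1, the poly(A)-binding protein, was the most abundant gene of this list not called (−0.29, edgeR adjusted p = 0.201). EIF1B over EIF1 and EIF2S3B over EIF2S3 were at nearly constant ratios, between 0.0372 and 0.0382 and between 0.0184 and 0.0212. EEF1A2, the tissue-restricted paralog of EEF1A1, had 535 and 334 CPM in resistant libraries, against 682 and 759.9 CPM in untreated libraries. It fell (log2 fold change −0.73, SE 0.22, edgeR adjusted p = 0.0288), and the call ended without untreated replicate 1 (0.0847), untreated replicate 2 (0.101) or resistant replicate 2 (0.175). Its ratio to EEF1A1 was 0.0303 and 0.022 in resistant libraries, against 0.0427 and 0.0501 in untreated libraries. The genes around it had a median of −0.68.

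Among the genes that set eIF2 phosphorylation, 1 of 11 rose and 1 fell (18.2% called, against 34% of all tested genes). PPP1R15A, the stress-induced subunit that directs a phosphatase to eIF2 alpha, had 77.6 and 55.8 CPM in resistant libraries, against 30.2 and 27.8 CPM in untreated libraries. The groups stood apart (log2 fold change 1.20, SE 0.19, edgeR adjusted p = 0.00127), and it was called with any library left out. PPP1CB, a catalytic subunit of that phosphatase, fell by 0.61 (edgeR adjusted p = 0.0163) and lost its call without untreated replicate 1 (0.149) and without resistant replicate 1 (0.0731). None of the 4 eIF2 kinases EIF2AK1, EIF2AK2, EIF2AK3 and EIF2AK4 was called. PPP1CC was the most abundant gene of the list not called (0.09, adjusted p = 0.678).

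Of 17 genes that control cap binding and elongation, 5 fell and 2 rose (41.2% called, against 34% of all tested genes). MKNK2, the kinase MNK2 that phosphorylates eIF4E, had 798 and 481 CPM in resistant libraries, against 278 and 239 CPM in untreated libraries (log2 fold change 1.31, SE 0.24, edgeR adjusted p = 0.0031). The resistant libraries differed, and both lay above the untreated pair. EIF4EBP2, which sequesters eIF4E, had 57.8 and 62.3 CPM in resistant libraries, against 105 and 101 CPM in untreated libraries (−0.78, SE 0.15, edgeR adjusted p = 0.00334). EEF2K, the kinase that inactivates eEF2, had 24.4 and 23.8 CPM in resistant libraries, against 42.2 and 45.5 CPM in untreated libraries (−0.87, SE 0.17, edgeR adjusted p = 0.00373). These 3 were called with any library left out.

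The other 4E-binding proteins, chosen after their values were seen, went apart. EIF4EBP1 had 61.4 and 47.9 CPM in resistant libraries, against 93.9 and 80.4 CPM in untreated libraries (log2 fold change −0.67, edgeR adjusted p = 0.0143). It lost its call without untreated replicate 1 (0.109) and without resistant replicate 2 (0.0749). EIF4EBP3 had 10.2 and 8.97 CPM in resistant libraries, against 5.23 and 5.69 CPM in untreated libraries (0.81, edgeR adjusted p = 0.0422), and was not called with any library left out (adjusted p between 0.0691 and 0.158). It shares exons with a readthrough gene. LARP1, which binds pyrimidine-tract mRNAs, was the most abundant gene of the list not called (−0.28, adjusted p = 0.216).

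Of 7 genes of termination, recycling and rescue 3 fell and 0 rose (42.9% called, against 34% of all tested genes). ETF1, which reads stop codons, had 200.1 and 191 CPM in resistant libraries, against 451 and 316 CPM in untreated libraries (log2 fold change −0.97, SE 0.19, edgeR adjusted p = 0.00387). GSPT1, its GTPase partner, fell by 0.75 (edgeR adjusted p = 0.00654), and ABCE1, which splits the ribosome afterwards, by 0.80 (0.00815). Without untreated replicate 1, GSPT1 (0.0667) and ABCE1 (0.0895) were not called. UPF1, a helicase of nonsense-mediated decay, was the most abundant not called (0.01). Of 7 tested genes of decapping and poly(A) control, PATL1 alone was called (14.3%, against 34% of all tested genes). PATL1 had 269.9 and 153 CPM in resistant libraries, against 71.2 and 67 CPM in untreated libraries (1.61, SE 0.25, edgeR adjusted p = 0.00206). CNOT1, the scaffold of the deadenylase, was the most abundant not called (0.19).

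Of 32 ribosomal protein genes of the small subunit 5 fell and 1 rose, 18.8% called. Of 47 genes of the large subunit 0 fell and 1 rose, 2.13% called, against 34% of all tested genes. RPS21 (log2 fold change −0.70, edgeR adjusted p = 0.0088), RPS29 (−0.62, 0.0204) and RPS14 (−0.56, 0.0224) fell and RPL35A rose (0.66, 0.0143). Leaving out untreated replicate 1 ended the calls of RPS21 (edgeR adjusted p = 0.0631), RPS29 (0.153) and RPS14 (0.16). Leaving out resistant replicate 2 ended those of RPS21 (0.0507), RPS29 (0.119) and RPS14 (0.0955). Leaving out resistant replicate 1 ended those of RPS14 (0.133) and RPL35A (0.109), and untreated replicate 2 that of RPL35A (0.0939). RPS18 (−0.05) and RPLP0 (0.17) were the most abundant genes of the 2 lists not called. The median log2 fold change was −0.10 for the small and −0.13 for the large subunit.

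**Figure D5:**
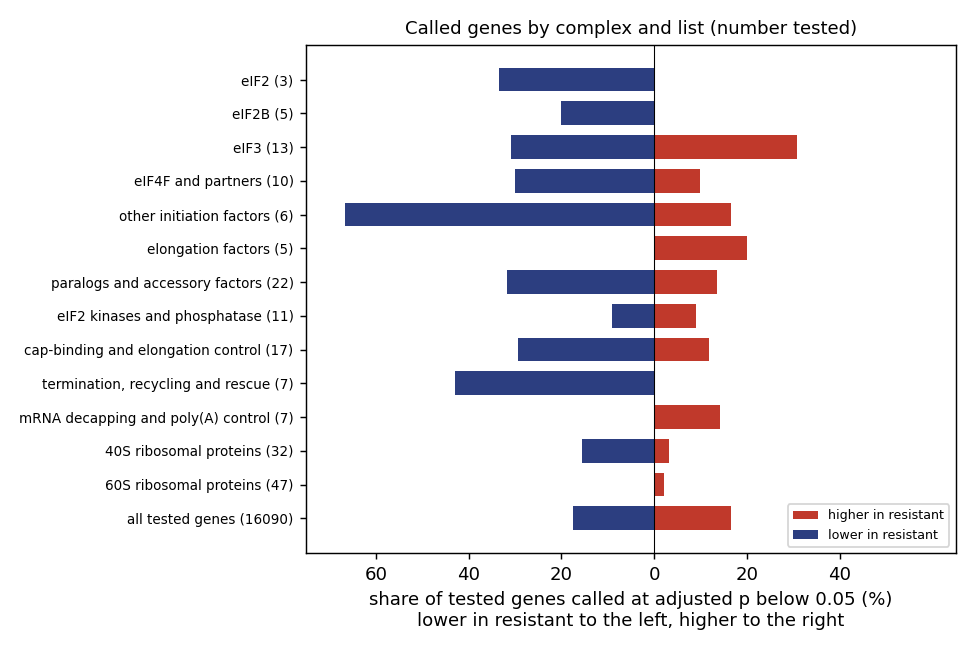
Share of tested genes called at an adjusted p below 0.05 in each complex and list, with the number tested in parentheses. Bars to the left are genes lower in resistant libraries and bars to the right genes higher there. All tested genes stand at 17.4% lower and 16.6% higher, while termination and recycling has bars only to the left and the 60S ribosomal proteins have 1 gene to the right.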

How the data were processed

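Polyadenylated RNA of 4 libraries was sequenced. The authors deposited 1 table of expected counts per library, and these sum to a different total in each, as unscaled values do. The submitters' processing notes name STAR 2.7.2b, RSEM 1.3.1 and GRCh37 without their roles. The annotation release and strand setting are not given in the sources used here. Expected counts were rounded (93.6% were whole already). Genes were kept with filterByExpr, scaled by TMM, and tested with edgeR 4.0.16 in R 4.3.3 by the quasi-likelihood F-test with robust dispersions, adjusted by the Benjamini-Hochberg method over 16090 genes. The standard error is the log2 fold change divided by the square root of F. The common biological coefficient of variation was 19.6%. The test was tried on simulated counts. Alternatives were RLE and upper-quartile scaling, other filters, DESeq2 1.42.0, limma-voom (limma 3.58.1), edgeR's newer form, a replicate block, a threshold of 0.01 and each library left out.

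Symbols came from a gene name table, and DCP1A and PECAM1 were not analysed here. Chromosomes, gene order, transcript lengths and overlaps came from GENCODE 29, of another build, so no coordinates of it are given. Members and lists were chosen with earlier results of these data known. All 42 members are accounted for. Values in every library are given by rule for members that were called or had the highest CPM of their complex, those with a near-identical paralog, and, of each other list, up to 3 called genes by adjusted p and the most abundant one not called. EIF2S2, EIF3G, EIF3I, EIF4G3, EEF1B2 and EEF1D were added after their values were seen. The 20 CPM level, the neighbourhood limit of 0.2, and the letters searched at starts were set after values were seen. Floors cover counting error only. Single marker and target genes left out of the text are not reported here.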

Additional observations from a re-analysis of the deposited data

How the results depend on the processing

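Over all tested genes 5463 were called, and 20 members, 13 lower and 7 higher. At a threshold of 0.01 these became 2832 genes and 7 members, 6 lower and 1 higher, or 17.6% of genes and 16.7% of members. With a library left out they ranged from 2832 to 5041 genes and from 5 to 17 members, 3 to 15 of them lower and 1 to 4 higher. Fewest genes, members and lower members were called without untreated replicate 1, and fewest higher members without resistant replicate 1. Under the other scalings, filters and tests 18 to 21 members were called. With the replicate block, 5275 genes and 20 members were called. The block ended the call of EIF5B (edgeR adjusted p = 0.0571) and brought in EIF4A1 (0.0451), and of the other genes named it ended that of EIF4EBP3 (0.0554) and brought in EIF3CL (0.031). Same-numbered libraries did not deviate together (correlation −0.0418), and the labels give the numbers no meaning, so they were not taken as pairs. Across 42 members and 8 other settings, 325 values kept their side of the threshold, 8 lost a call and 3 gained one, and none changed direction while called. With 2 libraries a group, a member that was not called may still differ, and the smallest change called among the members was 0.47 on the log2 scale (EIF3M).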
